A study of Mus musculus with 4 samples.

Results

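The genes described here are 10 mouse genes whose transcript or surface level is used to read how strongly a T cell has been signalled through its T cell receptor (TCR): the nuclear receptors Nr4a1, Nr4a2 and Nr4a3, the zinc finger factors Egr1, Egr2 and Egr3, the surface proteins Cd5, Cd6 and Cd69, and Myc. They were taken by symbol from the 52636 gene rows of the deposited count table, and all 10 were found there. The rule takes them by name, but they were chosen with earlier results of these data known. RNA was sequenced from regulatory T cells sorted by surface markers that include CD4 and CD25 (the CD25bright fraction) from C57BL/6 mice aged 7 weeks. The group labelled KI carried Vav1R63W, a knock-in allele of the signalling protein Vav1. The group labelled KITKO carried the same allele and, by its genotype label Vav1R63WThemis1-T-/-, a T cell deletion of Themis1 (gene Themis), which acts close to the TCR. Each group has 2 libraries, named KI2, KI3, KITKO2 and KITKO3 by their labels, so both groups share the Vav1 allele and cells without it were not analysed here. The Cre line behind the deletion and the number of animals per library are not given in the sources used here. Where nothing says that libraries came from separate animals, p-values measure the spread between these libraries, which may be technical.

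TCR engagement activates kinases, calcium and Ras pathways that switch on NR4A and EGR genes within the first wave of transcription. NR4A proteins are orphan nuclear receptors that help set up and maintain regulatory T cells, and EGR2 and EGR3 restrain T cell activation. CD5 and CD6 are scavenger-receptor proteins that dampen TCR signals, and the level of CD5 is set by the strength of self-recognition. CD69 is an early activation antigen that holds lymphocytes in tissue by binding the sphingosine phosphate receptor S1PR1, and Myc drives growth after activation.

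Nr4a1 and Egr2 are shown by the sequence before their transcription start because each stood within a narrow range in 3 libraries and far lower in KITKO3, and Nr4a2 because it was close to unexpressed while its window carries the same element as that of Nr4a1. Each line gives the 250 bases before a RefSeq start (build GRCm38.p6), 5′ to 3′ on the strand of the gene. Capitals mark the core of the cAMP response element, TGACG, read on either strand, and in Egr2 also the CArG box bound by serum response factor. The Nr4a1 window is chr15:101266596-101266845 on the plus strand and lies in an intron of 1 longer annotated transcript. The Nr4a2 window is chr2:57124004-57124253 on the minus strand, with no annotated transcript in it. The Egr2 window is chr10:67537619-67537868 on the plus strand, in an intron of 2 longer transcripts, and is the first of 3 overlapping windows that hold its elements.
Nr4a1: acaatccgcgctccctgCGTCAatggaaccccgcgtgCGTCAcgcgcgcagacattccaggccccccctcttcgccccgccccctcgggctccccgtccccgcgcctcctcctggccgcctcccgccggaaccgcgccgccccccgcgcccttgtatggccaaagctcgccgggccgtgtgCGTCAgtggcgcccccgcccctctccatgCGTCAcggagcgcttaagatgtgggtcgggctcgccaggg
Nr4a2: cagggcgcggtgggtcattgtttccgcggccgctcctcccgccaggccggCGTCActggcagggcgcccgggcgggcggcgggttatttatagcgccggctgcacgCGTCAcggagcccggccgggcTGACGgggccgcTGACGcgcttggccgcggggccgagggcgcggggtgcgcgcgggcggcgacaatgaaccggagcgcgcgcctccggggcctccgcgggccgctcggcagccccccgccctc
Egr2: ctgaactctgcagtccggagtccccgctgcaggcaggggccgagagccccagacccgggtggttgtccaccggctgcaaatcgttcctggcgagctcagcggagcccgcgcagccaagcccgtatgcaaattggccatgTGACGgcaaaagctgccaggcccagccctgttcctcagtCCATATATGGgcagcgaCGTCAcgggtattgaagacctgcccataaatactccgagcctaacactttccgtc

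Sequence windows of 5 of the 10 genes (Nr4a1, Nr4a2, Nr4a3, Egr2 and Cd5) were searched. Egr1 was left out of this search. The windows of Nr4a1, Nr4a2 and Nr4a3 each held 4 matches to the TGACG core, and 45 of 32851 RefSeq windows of the same length (0.137%) held 4 or more. A single match or more was present in 17.8% of all windows. The Nr4a3 window overlaps 2 annotated exons, and the annotated gene starts inside it, at 48045153. The core contains a CG pair, and the GC content was 74.4%, 80% and 63.6% in the windows of Nr4a1, Nr4a2 and Nr4a3, against a mean of 53.2% over all windows. The Egr2 window printed above held the CArG box CCATATATGG from base 72 to base 63 before the start. TGACG cores stood on either side of this box. A CArG box was present in 1.47% of all windows. That share is per window, while several windows of Egr2 were searched. The Cd5 window held none of the motifs searched, which were TGACG, the AP-1 site TGANTCA, the NFAT core GGAAAA, the CArG box, the EGR core GTGGGCG, the E-box CACGTG and the NR4A core AAGGTCA, on both strands. Of the other Egr2 windows, that starting at 67537316 held a CArG box, CCTTTTTTGG, and an NFAT core. That starting at 67535249 held an EGR core and an E-box. A match describes letters in a window and is no evidence of binding.

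Reads assigned to genes numbered from 13963670 to 15953194 per library. Genes with at least 1 read numbered 12011 in KI2, 11722 in KI3, 12049 in KITKO2 and 10809 in KITKO3. KITKO3 thus had the fewest, so low values in it are not particular to the genes described here. Themis itself had 283 and 97 reads in KI2 and KI3, 685 in KITKO2 and 0 in KITKO3. These reads, counted over the whole gene, go against the label of KITKO2. Which exons they came from was not examined. Directions below are therefore between labels, and fold changes are also given without KITKO2 where stated. Regulatory T cell identity was present in every library: the 10 markers listed for it, led by Capg, Izumo1r and Foxp3, summed to between 4168 and 4550 CPM (counts per megaread assigned to genes). Vav1 stood at 206 and 253 CPM in KI2 and KI3 and at 160 and 73.5 CPM in KITKO2 and KITKO3. T cell markers, led by Lck and Cd3d, summed to 6935 to 7565 CPM. Among 11 B cell markers, 7 were at 0 in all 4 libraries, Ms4a1 included, while Ighm stood at 1111 to 1307 and Cd79b at 35.5 to 63.6 CPM. Cytotoxic and NK markers summed to 160 to 217 CPM, mostly Nkg7 and Cd8b1, with Cd8a at 0. Of 9 myeloid markers 8 were at 0, Lyz2 included, and Cybb reached 18.6 CPM; of 6 dendritic cell markers 5 were at 0, Flt3 included, and Zbtb46 reached 14.1 CPM. Of the erythroid markers, Hba-a1 reached 5.64 and Hbb-bs 4.51 CPM. Many genes were present in 1 library and absent from its replicate. At least 100 reads in 1 KI library and 0 in the other were found for 563 genes. Between the KITKO libraries 836 genes did so, Themis among them. Whether its 0 in KITKO3 reflects the deletion was not tested. In sorted bulk RNA, fewer cells carrying a transcript and less of it per cell cannot be told apart.

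None of the 9 genes that could be tested differed between the labels beyond the spread of the libraries. Of these 9, which had enough reads, 0 passed edgeR's quasi-likelihood test (each adjusted p = 1.000), 5 had a positive and 4 a negative log2 fold change, and their median was 0.09 against 0.00 over all genes tested. The test called 0 of 10216 genes (0%). An unadjusted p under 0.05 was found for 509 genes, or 4.98%, and for 0 of the 9. DESeq2 called 0 of the same 9 as well and gave Nr4a2 no adjusted p, where it called 206 genes (1.92% of those with an adjusted p). The 2 KITKO libraries lay below both KI libraries for 2 of the 9 tested genes, Nr4a1 and Myc, as they did for 18.7% of all tested genes. They lay above both for 0 of the 9, against 15.1% of all tested genes. Without KITKO2, again 0 of the 9 passed, with a median over all tested genes of -0.20 in that comparison, and 1 of the 9, Egr2, had an unadjusted p under 0.05, as did 10% of the 11579 genes in that fit. KITKO3 alone lay below both KI libraries for 4 of the 9 and above both for 3, against 39.9% and 33.3% of all tested genes. An exact permutation test of 2 against 2 libraries cannot give a two-sided p below 0.333, so none was run.

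**Figure D1:**
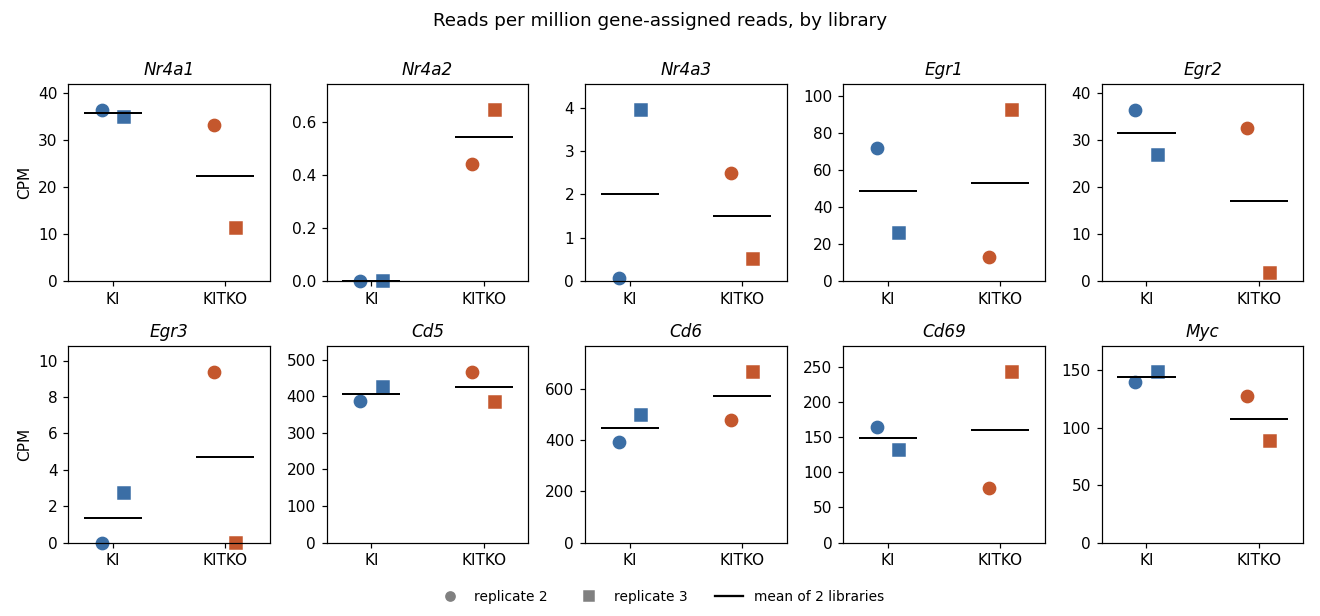
Level of each of the 10 genes in CPM (counts per megaread assigned to genes) by label, with 1 point per library (circle, replicate 2; square, replicate 3) and a bar at the mean of 2 libraries; each panel has its own axis from 0. Nr4a1 and Egr2 are close together in 3 libraries and low in KITKO3, at 11.2 and 1.65 CPM, while Egr1 and Cd69 are highest in KITKO3, at 92.6 and 243 CPM.

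Levels of different genes were compared per kilobase of annotated exon. In this order, the mean over 4 libraries was 84.3 CPM per kb for Cd5, 64.1 for Cd6, 46.5 for Myc, 23.7 for Cd69, 11.3 for Egr1, 8.24 for Nr4a1, 7.16 for Egr2, 0.687 for Egr3, 0.294 for Nr4a3 and 0.0667 for Nr4a2. The ranges of each gene and its next neighbour overlapped for all 9 neighbouring pairs. Of these pairs, Cd69 over Egr1 and Egr2 over Egr3 kept their order in all 4 libraries. The surface receptors and Myc thus gave most of the reads, and Egr3, Nr4a3 and Nr4a2 were near the lower end of what these libraries could count. No exon of the 10 genes overlaps an exon of another annotated gene, and for each of the 10 the reads of the 2 strand columns added up to the unstranded count.

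Among the nuclear receptors, Nr4a1 (ENSMUSG00000023034, GRCm38 chromosome 15, 101254269 to 101274795, plus strand), which encodes NUR77, carried nearly all reads. It stood at 36.3 and 34.9 CPM in KI2 and KI3 and at 33.2 and 11.2 CPM in KITKO2 and KITKO3. KI2, KI3 and KITKO2 were level and KITKO3 alone was low. The group means of 35.6 ± 1.05 and 22.2 ± 15.5 CPM (SD, n = 2 each) gave a log2 fold change of -0.67 ± 0.83 (SE). Between KITKO2 and KITKO3 Nr4a1 differed 2.95-fold (exact 95% binomial interval 2.46 to 3.55, counting error only), while KI2 and KI3 differed 1.04-fold (0.920 to 1.18). Without KITKO2 it was -1.62 ± 0.74 (SE, edgeR adjusted p = 0.582), and without KITKO3 it was -0.11 ± 0.59.

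Nr4a3 (ENSMUSG00000028341, chromosome 4, 48045153 to 48086447, plus strand), which encodes NOR1, had 1 and 57 reads in KI2 and KI3 and 40 and 7 in KITKO2 and KITKO3. Its replicates thus differed more than its labels did, and the log2 fold change of -0.43 ± 2.13 (SE) was -1.96 ± 3.85 without KITKO2 and turned to 0.29 without KITKO3 and to 4.27 without KI3. Nr4a2 (ENSMUSG00000026826, chromosome 2, 57106830 to 57124003, minus strand), which encodes NURR1, had 0 reads in both KI libraries and 7 and 9 in KITKO2 and KITKO3. Its KITKO mean of 0.542 CPM was 2.56 times a floor of 3 reads in each KI library. For KITKO3 alone, with KITKO2 left out, this ratio was 3.05. Neither ratio is a lower bound, since the counting error of the 7 and 9 reads is left out. With so few reads Nr4a2 fell below the filter of the edgeR fit. It had an adjusted p of 0.852 in edgeR with no filter on low counts and an unadjusted p of 0.259 in DESeq2. The 4 TGACG cores of the Nr4a2 window printed above thus went with a gene at the limit of detection, and the 4 of Nr4a1 with one at 11.2 to 36.3 CPM.

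The EGR genes did not move as a family. Egr2 (ENSMUSG00000037868, chromosome 10, 67535475 to 67542188, plus strand), which restrains T cell activation, stood at 36.4 and 26.7 CPM in KI2 and KI3, 32.5 CPM in KITKO2 and 1.65 CPM in KITKO3. These are 510, 385, 519 and 23 reads, and KITKO2 exceeded KITKO3 19.8-fold (exact 95% binomial interval 13.0 to 31.4). The means of 31.6 ± 6.84 and 17.1 ± 21.8 CPM (SD, n = 2 each) gave a fitted difference of -0.88 on the log2 scale, with a 95% interval of -4.96 to 3.20. Without KITKO2 it was -4.21 ± 1.04 (edgeR adjusted p = 0.455, unadjusted p = 0.0236, a level that 10% of all genes reach in that fit), and without KITKO3 it was 0.04 ± 0.66, so its size rests on 1 library.

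Egr1 (ENSMUSG00000038418), an immediate early factor upstream of many growth signals, ran the other way. It stood at 71.7 and 26.0 CPM in KI2 and KI3 and at 13.0 and 92.6 CPM in KITKO2 and KITKO3. KITKO3 was the highest library for Egr1 and the lowest for Egr2, and KITKO2 was the lowest for Egr1. The KITKO libraries differed 7.10-fold (exact 95% interval 6.13 to 8.26) and the KI libraries 2.75-fold (2.44 to 3.11). The log2 fold change of 0.17 ± 1.12 (SE) became 0.98 ± 0.77 without KITKO2 and -1.90 ± 0.98 without KITKO3.

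Because Egr1 is also induced while tissue is dissociated, 2 other genes of that response are given beside it. Fos stood at 89.8, 329, 181 and 210 CPM in KI2, KI3, KITKO2 and KITKO3, and Jun at 48.6, 81.7, 69.3 and 146 CPM. Fos was lowest in KI2, where Egr1 was second highest, and Jun, like Egr1, was highest in KITKO3. The 11 dissociation and heat stress genes listed summed to 3856, 4833, 3603 and 3880 CPM in the same order, and their part in the Egr1 level was not tested. Egr3 (ENSMUSG00000033730, chromosome 14, 70077203 to 70082614, plus strand), a close relative of Egr2, had 0 and 39 reads in KI2 and KI3 and 150 and 0 in KITKO2 and KITKO3. A count of 0 allows up to 0.214 CPM in KI2 and 0.215 CPM in KITKO3, against 9.40 CPM in KITKO2. Egr3 was thus absent from 1 library of each label, and its fold change (log2 1.77 ± 3.49 SE) turned to -7.27 without KITKO2, a fitted value and no bound.

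Cd5 (ENSMUSG00000024669, chromosome 19, 10717116 to 10739002, minus strand), the reporter of self-recognition strength, was the steadiest of the 10. It stood at 387 and 425 CPM in KI2 and KI3 and at 467 and 384 CPM in KITKO2 and KITKO3, a coefficient of variation of 9.42% over the 4 libraries. The KI values lay inside the range of the KITKO values. The group means of 406 ± 27.1 and 426 ± 59.0 CPM (SD, n = 2 each) gave a log2 fold change of 0.09 ± 0.16 (SE) with a 95% interval of -0.35 to 0.53 from the edgeR fit. Its sign depended on the libraries used, at -0.04 without KITKO2 and 0.20 without KITKO3.

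Cd6 (ENSMUSG00000024670, chromosome 19, 10789341 to 10830058, minus strand), the neighbouring gene of the same receptor family, stood at 395 and 498 CPM in KI2 and KI3 and at 480 and 669 CPM in KITKO2 and KITKO3. KITKO3 was the highest library, and KITKO2 lay below KI3, so the groups overlapped. The means were 446 ± 73.0 and 575 ± 134 CPM (SD, n = 2 each). The log2 fold change of 0.39 ± 0.26 (SE, 95% interval -0.30 to 1.09) was 0.63 ± 0.23 without KITKO2 (edgeR adjusted p = 0.524) and 0.10 ± 0.24 without KITKO3. Cd5 exceeded Cd6 per kilobase in 3 of the 4 libraries, and in KITKO3 Cd6 was ahead, at 84.0 against 77.9 CPM per kb. Alcam, which encodes the CD6 ligand CD166, had at most 9 reads in any library.

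Cd69 (ENSMUSG00000030156, chromosome 6, 129267325 to 129275436, minus strand) stood at 165 and 131 CPM in KI2 and KI3 and at 78.0 and 243 CPM in KITKO2 and KITKO3. The KITKO libraries were thus the lowest and the highest of the 4. They differed 3.11-fold (exact 95% interval 2.92 to 3.33), and the KI libraries 1.26-fold (1.18 to 1.34). The means of 148 ± 23.8 and 161 ± 117 CPM (SD, n = 2 each) give a log2 fold change of 0.16 ± 0.61 (SE). It was 0.76 ± 0.27 without KITKO2 and -0.93 ± 0.33 without KITKO3 (edgeR adjusted p = 0.511 and 0.862). S1pr1, whose product CD69 removes from the surface, stood at 463, 443, 456 and 373 CPM in KI2, KI3, KITKO2 and KITKO3. It was lowest in KITKO3, where Cd69 was highest, but not highest in KITKO2, where Cd69 was lowest. A link between these transcript levels was not tested.

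Myc (ENSMUSG00000022346, chromosome 15, 61985391 to 61990374, plus strand) stood at 140 and 149 CPM in KI2 and KI3 and at 128 and 88.5 CPM in KITKO2 and KITKO3. Both KITKO libraries lay below both KI libraries, by a narrow margin for KITKO2. The means of 144 ± 6.43 and 108 ± 27.7 CPM (SD, n = 2 each) gave a log2 fold change of -0.40 ± 0.29 (SE, 95% interval -1.18 to 0.39) that did not pass. Without KITKO2 it was -0.66 ± 0.30, and without KITKO3 it was -0.18 ± 0.28, so its sign held and its size did not.

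The genes that Myc pairs with or drives did not pass the test either. Of 37 Myc targets, all tested, 0 passed, with 18 positive and 19 negative log2 fold changes and a median of -0.02 (0.05 without KITKO2). Ldha, lactate dehydrogenase, was at 2562 ± 205 CPM in KI and 2768 ± 14.4 CPM in KITKO, and Ccnd2, cyclin D2, at 1151 ± 80.1 and 1202 ± 85.4 CPM (SD, n = 2 each). Of the Myc network, 17 of 18 listed names matched a gene. Of these, 14 were tested and 0 passed (8 positive, 6 negative, median 0.12, and 0.24 without KITKO2). Mxd1, a Max partner that opposes Myc, stood at 67.8 and 78.5 CPM in KI2 and KI3 and at 112 and 116 CPM in KITKO2 and KITKO3, without overlap (log2 0.66 ± 0.30 SE, edgeR adjusted p = 1.000; 0.70 without KITKO2). Mxd4, of the same family, stood at 126 and 138 CPM in the KI libraries and at 59.9 and 143 CPM in the KITKO libraries.

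**Figure D2:**
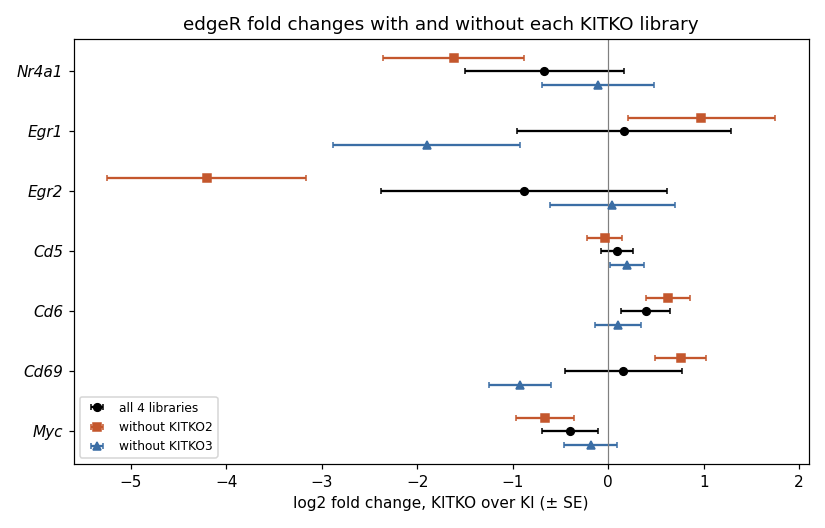
The log2 fold change of KITKO over KI with its standard error (edgeR), for the 7 genes with a mean of 20 CPM or more, from all 4 libraries (black circles), without KITKO2 (squares) and without KITKO3 (triangles). For Egr1 and Cd69 the values without KITKO2 are positive (0.98 and 0.76) and those without KITKO3 negative (-1.90 and -0.93), whereas Cd5 stays between -0.04 and 0.20.

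The spread between replicates set what could be read from these genes. Of the 7 whose mean reached 20 CPM, 4 (Nr4a1, Egr1, Egr2 and Cd69) differed over 2-fold between KITKO2 and KITKO3, as did 29.5% of the 5866 tested genes at that level. Between KI2 and KI3, 1 of the 7 (Egr1) differed over 2-fold, against 21.5% of those genes. The median fold between replicates at that level was 1.47 for KITKO and 1.36 for KI. The lowest library was KITKO3 for 4 of the 7 (Nr4a1, Egr2, Cd5 and Myc), against 32.2% of those genes, and the highest library was KITKO3 for the other 3 (Egr1, Cd6 and Cd69). No single direction held over the 7 genes in KITKO3, the library without Themis reads.

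**Figure D3:**
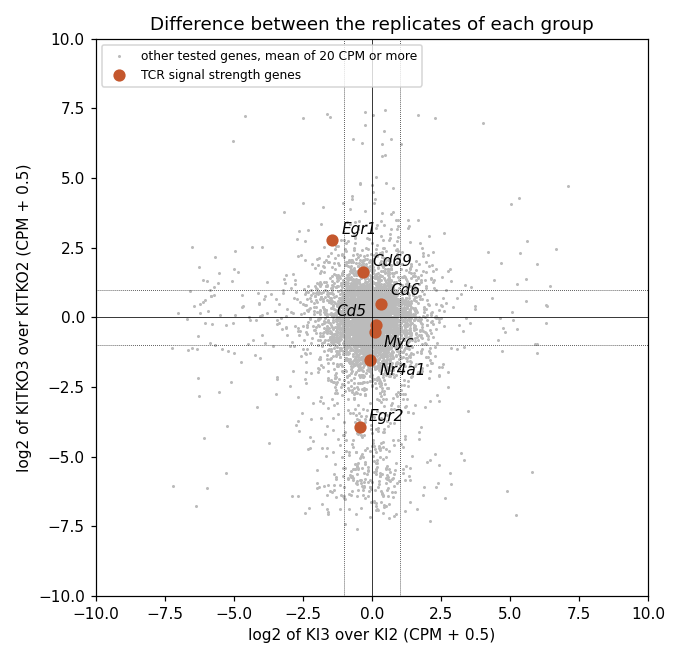
Each point is a tested gene whose mean reached 20 CPM, with the log2 ratio of KI3 over KI2 on the x axis and of KITKO3 over KITKO2 on the y axis (0.5 CPM added); dotted lines mark a 2-fold difference, and the 7 named genes are in orange. Egr1 and Cd69 lie above the upper line, Nr4a1 and Egr2 below the lower one, and Cd5, Cd6 and Myc between the lines.

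Other genes listed here as TCR-induced did not pass the test either. The list was drawn up by name, and induction of its members, Btg1 included, was not tested in these libraries. Of 76 listed genes 64 were tested and 0 passed, 29 with a positive and 35 with a negative log2 fold change, and the median was -0.06 against 0.00 over all tested genes. The KITKO libraries lay below both KI libraries for 14 of the 64 (21.9%, against 18.7% of all tested genes) and above both for 3 (4.69%, against 15.1%). Without KITKO2, 0 of 68 passed, and their median was -0.22 against -0.20 over all tested genes. KITKO3 alone lay below both KI libraries for 31 of the 64 and above both for 16 (48.4% and 25%, against 39.9% and 33.3%). The most abundant were Btg1, an antiproliferative gene, at 1425 ± 8.18 CPM in KI and 1150 ± 31.6 CPM in KITKO (log2 -0.28 ± 0.10 SE, edgeR adjusted p = 0.927; -0.29 without KITKO2), and Tnfrsf4, which encodes OX40, at 1309 ± 34.7 and 1187 ± 46.0 CPM (SD, n = 2 each). For both genes the KITKO libraries lay below the KI libraries.

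Where the mean reached 20 CPM, the most negative log2 fold changes of that list were those of Bhlhe40, Irf4 and Dusp6. Bhlhe40, a repressor induced by activation, stood at 46.7 and 33.3 CPM in KI2 and KI3 and at 10.5 and 0.358 CPM in KITKO2 and KITKO3. Irf4, a factor of effector regulatory T cells that scales with TCR strength, stood at 39.8, 19.7, 27.5 and 1.00 CPM in the same order. Dusp6, a phosphatase that limits ERK, stood at 2.36, 83.2, 48.2 and 0.143 CPM. All 3 were lowest in KITKO3, as were 32.2% of tested genes whose mean reached 20 CPM. They were picked by their negative fold changes, which favours a KITKO library as the lowest. Dusp6 was also low in KI2.

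The most positive were those of Jun, Gadd45b and Mafk. Jun, given above, had a log2 fold change of 0.75 ± 0.56 (SE), and 1.20 ± 0.49 without KITKO2. Gadd45b, a stress and activation gene, stood at 35.3 and 31.7 CPM in KI2 and KI3 and at 51.9 and 45.4 CPM in KITKO2 and KITKO3, without overlap (log2 0.56 ± 0.51 SE, and 0.48 without KITKO2). Mafk, a small Maf factor, stood at 30.8, 3.68, 48.3 and 0.0716 CPM in the same order, so its 2 low values came from replicate 3 of each label.

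Genes listed as falling after TCR stimulation, or as lower in cells with high CD5, did not pass either. Of these, 16 of 16 were tested, 0 passed, 8 were positive and 8 negative, with a median of -0.01 (-0.06 without KITKO2). The KITKO libraries lay below both KI libraries for 1 of the 16 and above both for 4. These shares were 6.25% and 25%, against 18.7% and 15.1% of all tested genes. KITKO3 alone lay below both KI libraries for 4 and above both for 5 (25% and 31.25%, against 39.9% and 33.3%). Among the 4 with both KITKO libraries higher was Klf3, a Krüppel-like repressor, at 132 and 94.6 CPM in KI2 and KI3 and 254 and 231 CPM in KITKO2 and KITKO3 (log2 1.13 ± 0.25 SE, edgeR adjusted p = 0.900, DESeq2 adjusted p = 0.0545). Without KITKO2 its log2 fold change was 1.07 ± 0.33. Ccr7, a lymph node homing receptor, was at 1150, 1499, 1226 and 1318 CPM in KI2, KI3, KITKO2 and KITKO3. Of 22 names listed as partners and regulators of NR4A and EGR genes, 21 matched a gene. Of these, 18 were tested and 0 passed (7 positive, 11 negative, median -0.25). Without KITKO2, 16 of 19 were negative and their median was -1.04, against -0.20 over all genes in that fit. These values rest on KITKO3 alone. Of the 13 partners whose mean reached 20 CPM, 8 differed over 2-fold between KITKO2 and KITKO3, against 29.5% of tested genes at that level. Nfatc1, a calcium-driven factor, was at 130 ± 42.4 and 143 ± 39.6 CPM, and Rxrb, a retinoid X receptor, at 106 ± 19.98 and 75.6 ± 45.4 CPM (SD, n = 2 each). Of 23 names listed around CD5, CD6 and CD69, 20 matched a gene. Of these, 18 were tested and 0 passed in edgeR (12 positive, 6 negative, median 0.25, and 0.23 without KITKO2). Lgals1, which encodes galectin-1, was at 525 ± 30.5 and 542 ± 99.2 CPM. DESeq2 called 1 gene of these lists, Cbl, a ubiquitin ligase recruited by CD5, with 835 and 1050 reads in KI2 and KI3 and 115 and 198 in KITKO2 and KITKO3 (DESeq2 adjusted p = 0.0369, edgeR adjusted p = 0.900). Its log2 fold change was -2.60 ± 0.68 (SE), and -2.18 ± 0.57 without KITKO2.

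**Figure D4:**
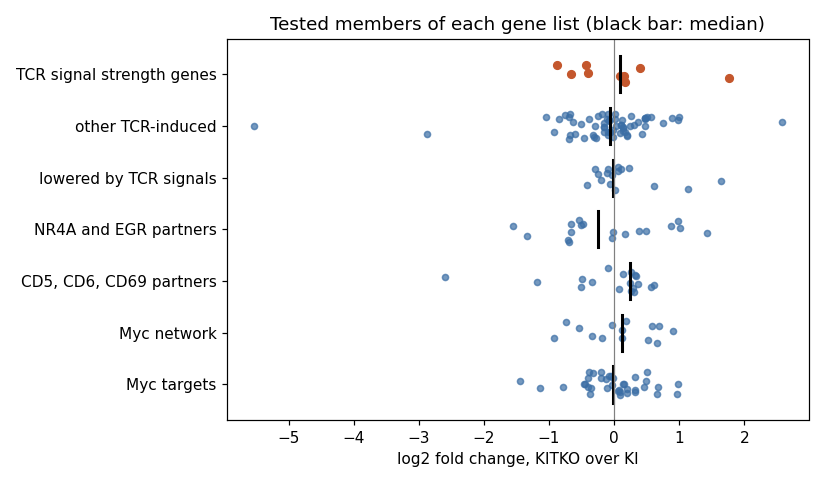
Log2 fold change of KITKO over KI (x axis, edgeR) for the tested members of each list (y axis), with 1 point per gene and a black bar at the median; points are spread vertically for legibility only. The medians lie between -0.25 for the NR4A and EGR partners and 0.25 for the CD5, CD6 and CD69 partners, and 0 genes passed the edgeR test in any list.

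Among 5865 other genes whose mean reached 20 CPM, those whose profile over the 4 libraries was closest to that of Nr4a1 were Lrrc32, Ccnc and Nop58, with root mean square distances of 0.02, 0.04 and 0.07 between centred log2 values (0.5 CPM added). Lrrc32, which encodes the regulatory T cell surface protein GARP, stood at 304, 282, 266 and 94.6 CPM in KI2, KI3, KITKO2 and KITKO3. Over only 4 libraries, close profiles among so many genes are common, and Myc ranked 442 and Egr2 4224 in the same order.

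The authors' deposited table, made from the same counts, gives log2 fold changes that are smaller in size for most of these genes. It lists -0.329 for Nr4a1, -0.222 for Egr2, 0.067 for Egr1, 0.089 for Cd5, 0.359 for Cd6, 0.110 for Cd69 and -0.345 for Myc. The adjusted p in the authors' deposited table runs from 0.647 for Cd6 to 0.993 for Egr1, and it lists none for Nr4a2, Nr4a3 and Egr3.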

How the data were processed

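Gene counts were taken from the deposited table of the whole series, in which the authors give raw read counts per gene. The design text names Trim Galore, STAR and Ensembl release 90, while the submitters' processing notes name the same tools and mm9, a different build. The deposited STAR files hold counts per strand, and their unstranded column equals the table for all 52636 genes in each library; 21.1% to 23.1% of reads fell into no gene (unmapped, multimapping, no feature, ambiguous) and were left out. The authors' deposited log2 fold changes, fold changes as linear ratios and p-values come from DESeq2 per the design text.

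Symbols were matched for 52403 IDs by gene ID. Coordinates and exon lengths are from GENCODE M21 (GRCm38), and the windows before transcription starts are from RefSeq (GRCm38.p6). CPM are counts per megaread assigned to genes in the library. All genes were fitted with edgeR 4.0.16 in R 4.3.3 (TMM, filterByExpr with minimum count 10 and minimum total 15, robust quasi-likelihood F test, two-sided, no block), with Benjamini-Hochberg adjustment over all genes tested and calls at an adjusted p under 0.05. Standard errors are the log2 fold change over the square root of F. Alternatives were DESeq2 1.42.0, limma-voom (limma 3.58.1), 2 other scalings, 2 other filters, summed strand columns, a replicate block and leaving out each library. The test was tested on simulated data. The simulated spreads were smaller than that of these libraries, whose common biological coefficient of variation was 1.02 in the edgeR fit. Its power at that spread was not tested. Intervals and floors cover counting error only, since PCR copies are not independent molecules. Named genes are the 10, Themis, Vav1, of each gene and marker list the 2 with the highest mean CPM, for TCR-induced genes also the 3 largest and 3 smallest log2 fold changes where the mean reached 20 CPM, and the 3 closest profiles to Nr4a1; Fos, Foxp3, Alcam, Cbl, Klf3 and the marker genes at 0 were named after their values were seen. Some genes this rule takes are not reported here. The 10 genes and the lists were chosen with earlier results of these data known.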

Additional observations from a re-analysis of the deposited data

How the results depend on the processing

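Over the 12 alternatives, 0 of the tested genes among the 10 passed in any of them (smallest adjusted p 0.455, for Egr2 without KITKO2), and 0 of the other TCR-induced genes did. Over all genes DESeq2 called 206 where edgeR called 0; limma-voom called 0 with 483 at an unadjusted p under 0.05. Of 108 log2 fold changes of the 9 tested genes, 93 kept their sign. Nr4a1, Cd6 and Myc never changed sign. With limma-voom the sign turned for Nr4a3 (0.90), Egr1 (-0.41) and Cd69 (-0.14). Under the replicate block it turned for the same genes, at 0.86, -0.29 and -0.069. The deviations of same-numbered libraries from their group means had a correlation of 0.02. With 2 libraries per label this cannot settle whether the replicate numbers pair the libraries. The block called 0 genes. The cause of these changes was not tested.

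Leaving out each library in turn gave log2 fold changes from -1.96 to 4.27 for Nr4a3, -1.90 to 1.04 for Egr1, -4.21 to 0.042 for Egr2, -7.27 to 9.10 for Egr3, -0.037 to 0.20 for Cd5 and -0.93 to 0.76 for Cd69. For Egr3 these are fitted values against libraries with 0 reads and are no bounds. In such fits the lone library of a label is assumed to vary like the others. Nr4a2, Nr4a3 and Egr3 stood at fewer than 10 CPM in every library, and a count of 0 in KITKO3 allows up to 0.215 CPM.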
